A study of Mus musculus with 6 samples.

Results

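The smooth muscle contractile genes described here are 10 genes of mouse: the actins Acta2 and Actg2, the actin-binding proteins Tagln, Cnn1, Smtn and Lmod1, the tropomyosins Tpm1 and Tpm2, and the myosin subunits Myh11 and Myl9. They were chosen by name, and every probe set that the platform annotation ties to exactly 1 of these symbols was taken, 19 of the 45037 on the array. The 19 cover 10 of the 18193 genes named on it. RNA came from sarcoma cell lines of strain C57BL6/J, 3 samples labelled Dicer null, with no working copy of Dicer1, and 3 labelled Dicer heterozygous, with 1 copy lost. Dicer is the nuclease that cuts microRNAs out of their precursors. Cells of both groups grew to confluence in the same serum-containing medium and no array of cells with both copies is in the series, so each difference below is null against heterozygous. The study's design text calls the samples lines, their titles call them replicates, and neither says whether the 3 of a group were separate cultures or clones. P-values therefore cover the spread among the 3 samples of each group, which may be technical.

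Smooth muscle cells contract when myosin pulls on filaments of smooth muscle actin, a movement switched on by phosphorylation of the regulatory light chain and tuned by tropomyosin, calponin and caldesmon on the filament. Many of these genes are under the control of serum response factor (SRF), which binds a DNA element called the CArG box with its cofactors myocardin and the myocardin-related factors. Fibroblasts that turn into myofibroblasts, as in wounds and in the stroma of tumours, switch on part of the same set, with Acta2 as the usual marker.

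Values are log2 GCRMA values per probe set, a scale on which a step of 1 is a doubling, and they show how bright a probe set was, not how many molecules there were. The 6 arrays' medians lay between 3.32 and 3.43, and precision is limited by having 3 arrays in each group. Of 81 probe sets for odorant, pheromone and trace amine receptors, 78 had a mean below 3, and that value was used as the least mean over 6 arrays for a probe set to be tested. Of the 24385 probe sets tested, limma called 756 (3.10%) at an adjusted p under 0.05, 1.48% lower and 1.62% higher in null arrays. Dicer1 itself was not called, with log2 differences of 0.14 and 0.27 in its probe sets (adjusted p of limma 0.693 and 0.573). Since the deleted part of the gene is not named, probe sets outside it would check nothing.

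Among the contractile genes 13 of the 19 probe sets, from 7 of the 10 genes, reached the minimum, and the other 6, with all those of Cnn1, Myh11 and Actg2, did not. Acta2, Tagln and 1 of the 4 probe sets of Tpm2 fell in Dicer null arrays. These 3 of 13 stand beside 1.48% called lower over all tested probe sets, and 6 of 13 had an unadjusted p under 0.05, where 23.2% of all did. The 6 were 1 of Acta2, that of Tagln and all 4 of Tpm2, so they stand for 3 genes. Probe sets of 1 gene are not independent, and most of the differences below 0 were of Tpm1 or Tpm2. None of the 13 was called higher by limma, and 0 had a positive difference at an unadjusted p under 0.05. Over the 13 the median log2 difference was -0.84, against 0.03 over all 24385, and 11 differences were below 0, where 47.3% of all tested probe sets were. Heterozygous replicate 1 stood apart from the other arrays in 5 of the 10 genes, and without it the median over the 12 probe sets still tested was -0.66 with 10 below 0. The same 3 probe sets were called without that array, but leaving out null replicate 1 or heterozygous replicate 2 gave 2, null replicate 3 gave 1 and null replicate 2 gave 0, with 3 at an unadjusted p under 0.05.

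**Figure D1:**
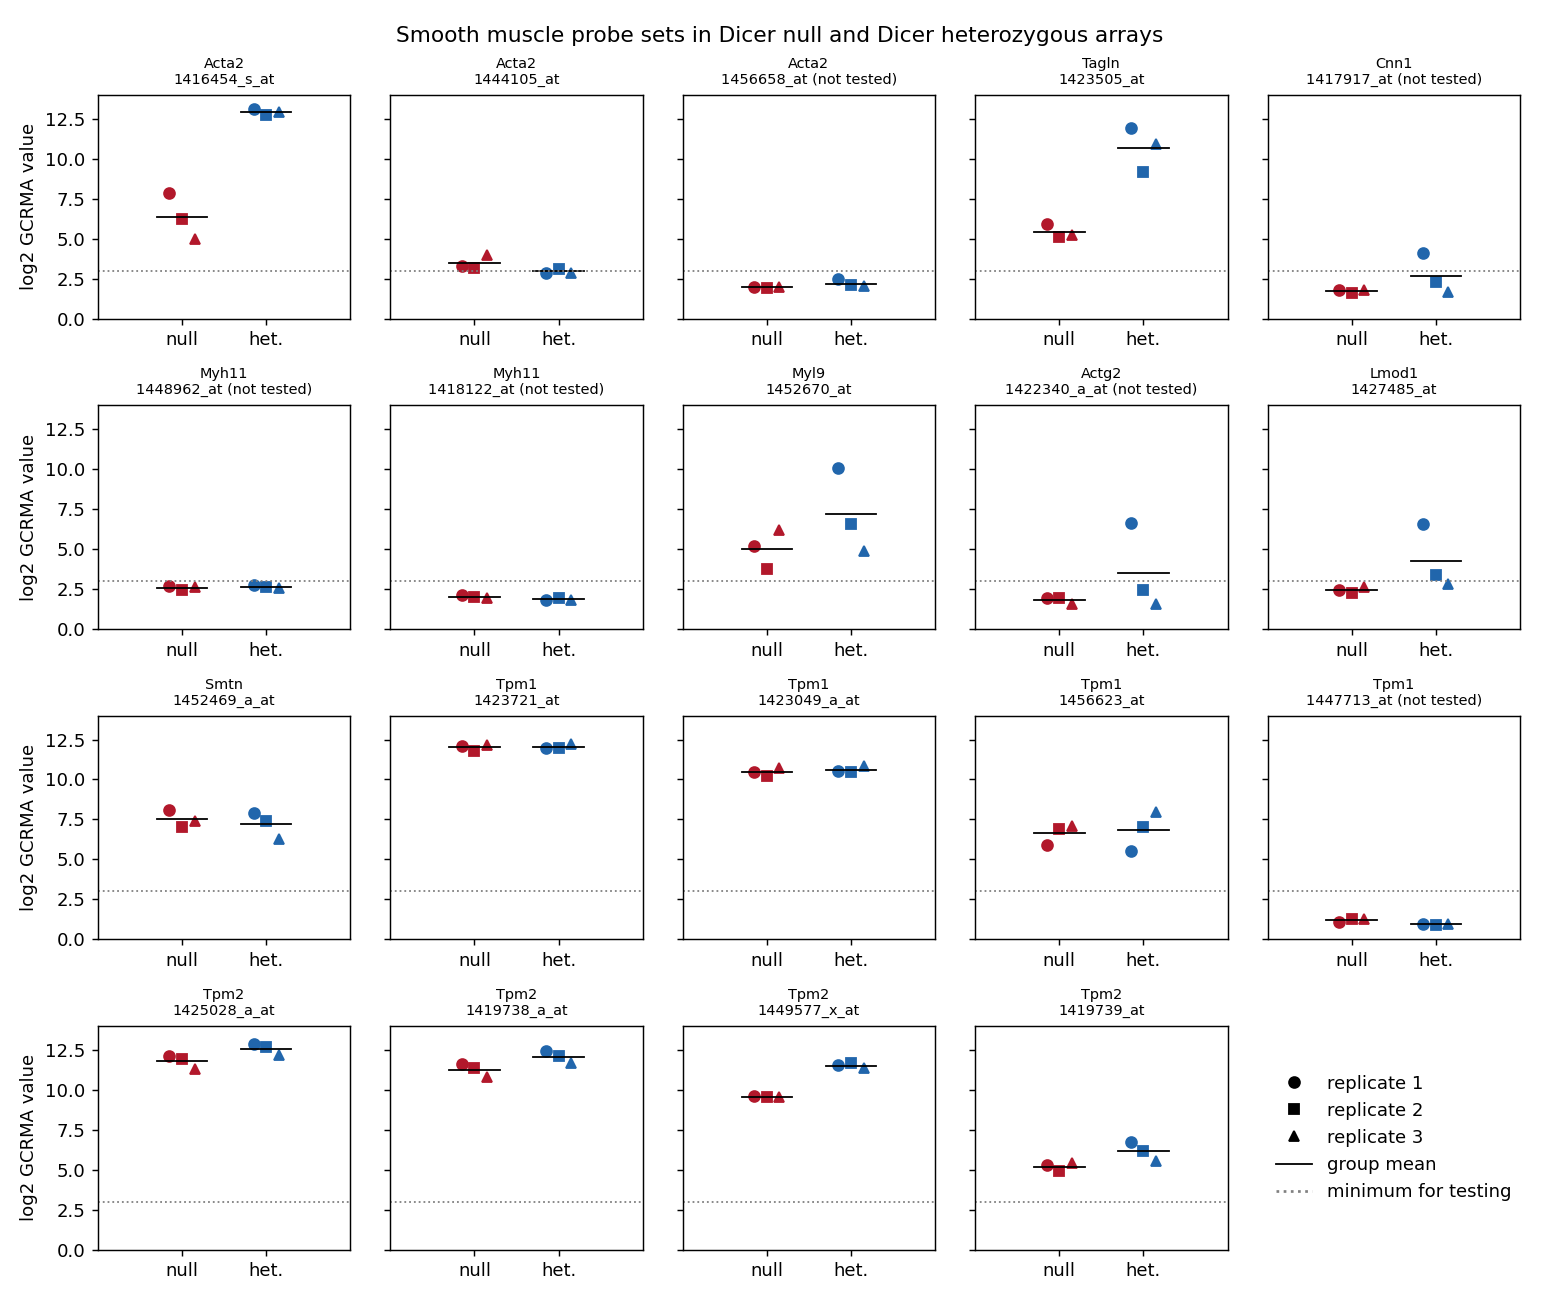
Each panel plots 1 of the 19 probe sets, with its log2 GCRMA value on the vertical axis for the 3 Dicer null arrays (left, red) and the 3 Dicer heterozygous arrays (right, blue). Symbols give the replicate number, bars the group mean and the dotted line the minimum of 3 for testing. Acta2 1416454_s_at, Tagln and Tpm2 1449577_x_at separate the groups widely, and Myl9, Actg2, Lmod1 and Cnn1 are highest in heterozygous replicate 1.

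Acta2, smooth muscle alpha-actin, which forms the thin filament, had the largest difference of the group. Its brightest probe set, 1416454_s_at, read 7.86, 6.22 and 4.96 in null arrays and 13.10, 12.71 and 12.92 in heterozygous arrays. The groups lay far apart, and the null arrays differed among themselves by more than the heterozygous ones, with SDs of 1.45 and 0.20 (n = 3 each). The fall was 94.6-fold (log2 difference -6.56, SE 0.69, 95% interval -8.24 to -4.89, limma adjusted p = 0.0169). It was 160-fold without null replicate 1 and 58.5-fold without null replicate 3, and the adjusted p rose to 0.0795 without null replicate 2 and 0.0573 without heterozygous replicate 2. In these bulk samples fewer cells that make a transcript and less of it per cell cannot be told apart.

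The other probe sets annotated to Acta2 lay at or near the level of unexpressed genes, so they do not test this fall. In 1444105_at the values were 3.28, 3.15 and 3.96 in null arrays and 2.87, 3.13 and 2.88 in heterozygous arrays, all close to the minimum. Every null array lay above every heterozygous one, as in 16.3% of tested probe sets. It reached the minimum on the strength of its null arrays, and its difference of 0.50 (95% interval -0.11 to 1.12, limma adjusted p = 0.293) was not called. The third, 1456658_at, lay between 1.90 and 2.47 in all arrays and was not tested. The suffix s on 1416454_s_at means, in the maker's naming, that its probes match more than 1 transcript. Of the close relatives on the array, the brightest probe sets of Actb and Actg1, the cytoplasmic actins, differed by 0.04 and 0.00 (limma adjusted p = 0.900 and 0.994), and Actc1, cardiac actin, read 1.61 to 1.87 everywhere. Acta1, skeletal muscle actin, read 4.78, 4.61 and 4.91 in null arrays and 7.75, 3.92 and 3.13 in heterozygous arrays. Its difference was -0.17 (limma adjusted p = 0.950).

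A stretch of 300 bases around the start of Acta2 is shown because CArG boxes near the start of this gene are the textbook example of SRF control. The sequence is RefSeq's, on build GRCm38.p6, chr19:34255324-34255623, minus strand, 250 bases before the start and 50 after. Capitals mark the 2 matches to the CArG box with 1 mismatch, which begin 84 and 34 bases before the start; no exact match lies in the window.
Acta2: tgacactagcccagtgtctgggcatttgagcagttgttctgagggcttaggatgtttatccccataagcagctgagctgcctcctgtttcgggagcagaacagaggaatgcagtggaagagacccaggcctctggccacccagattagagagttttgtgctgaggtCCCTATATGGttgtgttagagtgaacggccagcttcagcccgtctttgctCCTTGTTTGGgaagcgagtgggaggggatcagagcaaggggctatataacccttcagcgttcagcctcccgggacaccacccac
The box is equal to its own reverse complement, so both strands were read at once, and its length is 10 bases. Of 32817 promoter windows of this length 1.63% hold an exact match and 21.1% hold 1 with up to 1 mismatch. Windows were matched for 7 of the 10 genes: Acta2, Myl9, Lmod1 and Tpm1 hold such a match, Cnn1, Smtn and Tpm2 do not. No window was matched for Tagln, Myh11 or Actg2, so these were not searched. These are matches of letters and not measured sites.

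Actg2, the gamma-actin of gut and bladder muscle, read 1.95, 1.92 and 1.54 in null arrays and 6.62, 2.43 and 1.54 in heterozygous arrays. A single array, heterozygous replicate 1, carried a clear signal, and the rest lay at the level of unexpressed genes. With a mean of 2.67 the probe set was not tested.

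Tagln, transgelin or SM22, which bundles actin filaments and is an early marker of smooth muscle, has 1 probe set on the array. Null arrays gave 5.93, 5.08 and 5.20, and heterozygous arrays 11.93, 9.19 and 10.90. No null array came near a heterozygous one, and here the heterozygous arrays spread more, with SDs of 0.46 in null and 1.38 in heterozygous arrays (n = 3 each). The fall was 38.6-fold (log2 difference -5.27, SE 0.69, 95% interval -6.93 to -3.61, limma adjusted p = 0.0238). Leaving out heterozygous replicate 1 or 2 gave 25.0-fold or 64.5-fold, both called, while the adjusted p was 0.0605, 0.0971 and 0.0981 when null replicate 1, 2 or 3 was left out. Tagln2, its relative in non-muscle cells, had a difference of -0.64 (limma adjusted p = 0.241).

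Calponin 1, encoded by Cnn1, restrains the myosin motor on actin and marks differentiated smooth muscle. Its values were 1.81, 1.62 and 1.79 in null arrays and 4.08, 2.26 and 1.66 in heterozygous arrays. Only heterozygous replicate 1 exceeded 3, the groups overlapped, and the probe set was not tested. The broadly made calponins Cnn2 and Cnn3 differed by -0.12 and -0.19 (limma adjusted p = 0.680 and 0.506).

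Lmod1, leiomodin 1, starts new actin filaments in smooth muscle. It read 2.42, 2.27 and 2.64 in null arrays, against 6.54, 3.38 and 2.80 in heterozygous arrays. All null arrays were below all heterozygous ones, as in 14.6% of tested probe sets, but the heterozygous values spanned over 3 log2 units. The probe set reached the minimum only through its heterozygous arrays and was not called (log2 difference -1.80, 95% interval -4.08 to 0.49, limma adjusted p = 0.309).

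Smtn, smoothelin, a cytoskeletal protein of contractile smooth muscle, was present in every array. Its levels were 8.09, 7.04 and 7.43 in null arrays and 7.89, 7.41 and 6.25 in heterozygous arrays. The groups overlapped, with a difference of 0.34 (95% interval -0.83 to 1.50, limma adjusted p = 0.717), and the sign turned to -0.13 without heterozygous replicate 3.

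The tropomyosins are coiled coils that lie along the actin filament. For Tpm2, beta-tropomyosin, every null array lay below every heterozygous array in all 4 probe sets, as in 14.6% of all tested ones, and 3 of the 4 share a source sequence. The largest difference was in 1449577_x_at, with 9.61, 9.56 and 9.56 in null arrays and 11.54, 11.65 and 11.34 in heterozygous arrays. Its groups were tight (SD 0.03 and 0.16, n = 3 each) and it fell 3.82-fold (log2 difference -1.93, SE 0.16, 95% interval -2.32 to -1.55, limma adjusted p = 0.00978). Without null replicate 2 or 3 the adjusted p was 0.0586 and 0.0561, with folds of 3.64 to 4.05 whichever array was left out. With ordinary in place of moderated t statistics all 3 contractile calls were lost, with adjusted p values in limma's model of 0.110 for Acta2 1416454_s_at, 0.127 for Tagln and 0.0657 for Tpm2 1449577_x_at.

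The brightest Tpm2 probe set, 1425028_a_at, read 12.14, 11.93 and 11.32 in null arrays and 12.87, 12.70 and 12.17 in heterozygous arrays. Its difference was smaller, -0.78 (95% interval -1.50 to -0.07, limma adjusted p = 0.184). The remaining ones, 1419738_a_at and 1419739_at, had differences of -0.84 and -0.95 (limma adjusted p = 0.157 and 0.161). None of these 3 was called. Each had an unadjusted p under 0.05, as did 23.2% of all tested probe sets. To test whether probe sets of 1 gene disagree, the gap between the brightest and each other tested one was fitted across all 9713 pairs on the array. Of these 52 (0.535%) were called. Among them was Acta2 1416454_s_at against 1444105_at (change -7.07, limma adjusted p = 0.0389), a call lost in each fit without 1 array. With 1444105_at near the minimum in all arrays, that change repeats the fall of 1416454_s_at and tests no disagreement. The gap between 1425028_a_at and 1449577_x_at averaged 2.22 in null and 1.07 in heterozygous arrays. That change of 1.15 (SE 0.25) was not called (limma adjusted p = 0.126). With array weights it was (1.21, limma adjusted p = 0.0413), in a fit that called 287 of the 9713 pairs. Over all alternatives its adjusted p in limma ran from that lowest value to 0.332. The source sequence that the platform annotation lists is the same for 1449577_x_at, 1419738_a_at and 1419739_at. The suffix x means that some probes also match other sequences, and a part of such sequences in the call was not tested.

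For Tpm1, alpha-tropomyosin, no probe set was called. Its brightest, 1423721_at, gave 12.08, 11.80 and 12.16 in null arrays and 11.96, 11.98 and 12.24 in heterozygous arrays. The groups overlapped fully, and the interval of the difference, -0.48 to 0.39, leaves room for less than a 2-fold change in either direction on this scale (difference -0.05, limma adjusted p = 0.904). The sign of that small value turned to 0.02 with arrays centred on their medians, to 0.05 with array weights and to at most 0.06 without 1 array. The probe sets 1423049_a_at and 1456623_at differed by -0.17 and -0.19 (limma adjusted p = 0.658 and 0.887). The last of these varied between 5.52 and 7.94, with both replicates numbered 1 at the low end, and ran from -0.85 to 0.37 in fits without 1 array. The same gaps within Tpm1 gave changes of 0.12 and 0.15 (limma adjusted p = 0.731 and 0.937). The fourth, 1447713_at, lay between 0.92 and 1.30 and was not tested. The tropomyosins of non-muscle cells, Tpm3 and Tpm4, differed by -0.13 and 0.01 (limma adjusted p = 0.700 and 0.987).

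**Figure D2:**
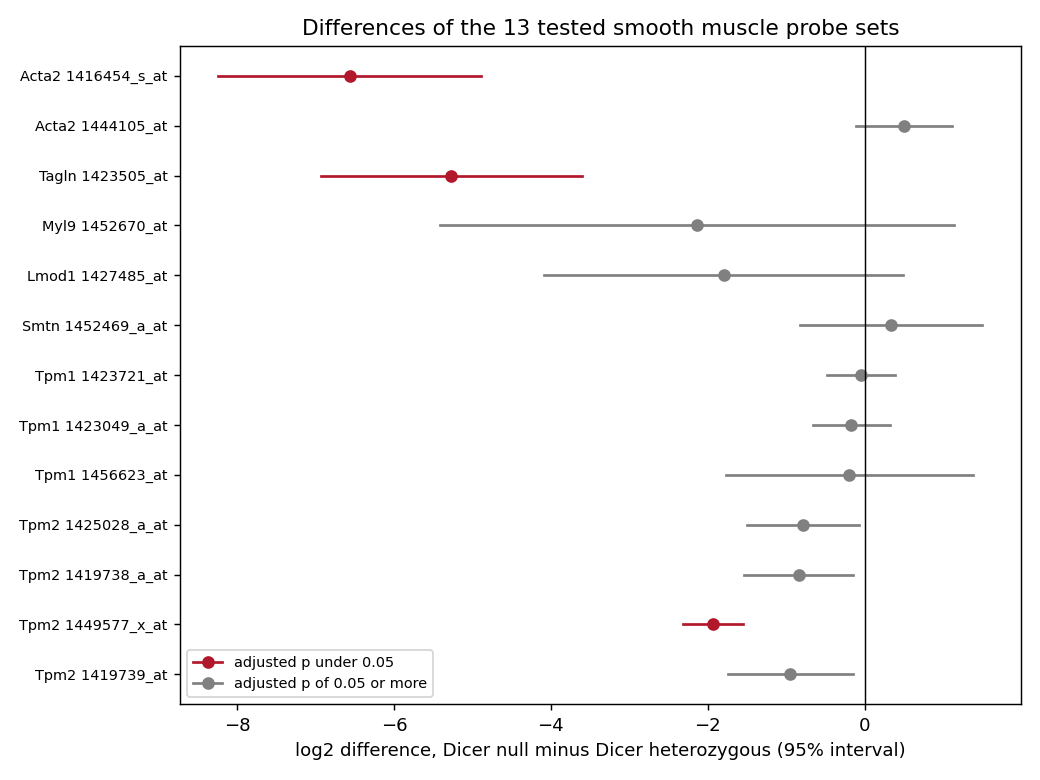
Points give the log2 difference, Dicer null minus Dicer heterozygous, of the 13 tested probe sets and lines its 95% interval from limma. The 3 probe sets with an adjusted p under 0.05 (red) lie at -6.56, -5.27 and -1.93; the intervals of Myl9 and Lmod1 are wide and cross 0, while those of all 4 Tpm2 probe sets lie below 0.

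Myh11, the smooth muscle myosin heavy chain and the marker that best sets mature smooth muscle apart, was not detected above the level of unexpressed genes. The probe set 1448962_at read 2.67, 2.45 and 2.65 in null arrays and 2.75, 2.63 and 2.57 in heterozygous arrays, and 1418122_at lay between 1.80 and 2.10. Both were below 3 in all 6 arrays and were not tested. The non-muscle heavy chains Myh9 and Myh10 stood at 12.36 to 12.41 and 11.43 to 12.18 in null arrays, and at 12.67 to 12.89 and 11.29 to 12.03 in heterozygous arrays (limma adjusted p = 0.208 and 0.884).

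Myl9, the regulatory light chain whose phosphorylation starts contraction, read 5.21, 3.72 and 6.16 in null arrays and 10.05, 6.58 and 4.87 in heterozygous arrays. Heterozygous replicate 1 was the highest by 3.47, and heterozygous replicate 3 lay among the null arrays. The difference was -2.14 (95% interval -5.41 to 1.13, limma adjusted p = 0.392), and it was -0.695 without heterozygous replicate 1. The light chains Myl12a and Myl12b, which serve non-muscle myosin, differed by -0.08 and -0.04 (limma adjusted p = 0.781 and 0.936).
Of the 7 genes with a matched window, which leaves out Tagln, Myh11 and Actg2, only Myl9 holds an exact CArG box. Its window is chr2:156775214-156775513 on the plus strand of GRCm38.p6 in RefSeq. The exact box begins 161 bases before the start, and a match with 1 mismatch begins 99 bases before it, both in capitals.
Myl9: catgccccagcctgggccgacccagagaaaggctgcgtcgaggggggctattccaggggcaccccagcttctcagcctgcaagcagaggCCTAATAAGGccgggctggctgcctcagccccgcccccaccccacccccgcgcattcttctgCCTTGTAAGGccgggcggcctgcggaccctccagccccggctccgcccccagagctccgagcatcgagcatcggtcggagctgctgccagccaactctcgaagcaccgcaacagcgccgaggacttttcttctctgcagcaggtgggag

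Actg2, Myl9, Lmod1, Cnn1 and Tagln, 5 genes in all, were thus highest in heterozygous replicate 1, by 4.19, 3.47, 3.16, 1.82 and 1.03 over the highest of the remaining 5 arrays. A margin of at least 1 was chosen after these values were seen. No other array was highest by that margin in any of the 19 probe sets. Over all 45037 probe sets it was so for 1.01% in heterozygous replicate 1, 1.67% in heterozygous replicate 3 and 0.189% to 0.437% in the others. Acta2 and Tpm2 did not follow: the margins of their brightest probe sets in that array were 0.18 and 0.17. Against heterozygous replicates 2 and 3 alone, the log2 differences of Acta2 1416454_s_at, Tagln and Myl9 were -6.47, -4.64 and -0.695. Actg2 and Cnn1 were below 3 in both of those arrays and in all null arrays, so no difference is given for them, and Lmod1 exceeded 3 in 1 of the 2, at 3.38.

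**Figure D3:**
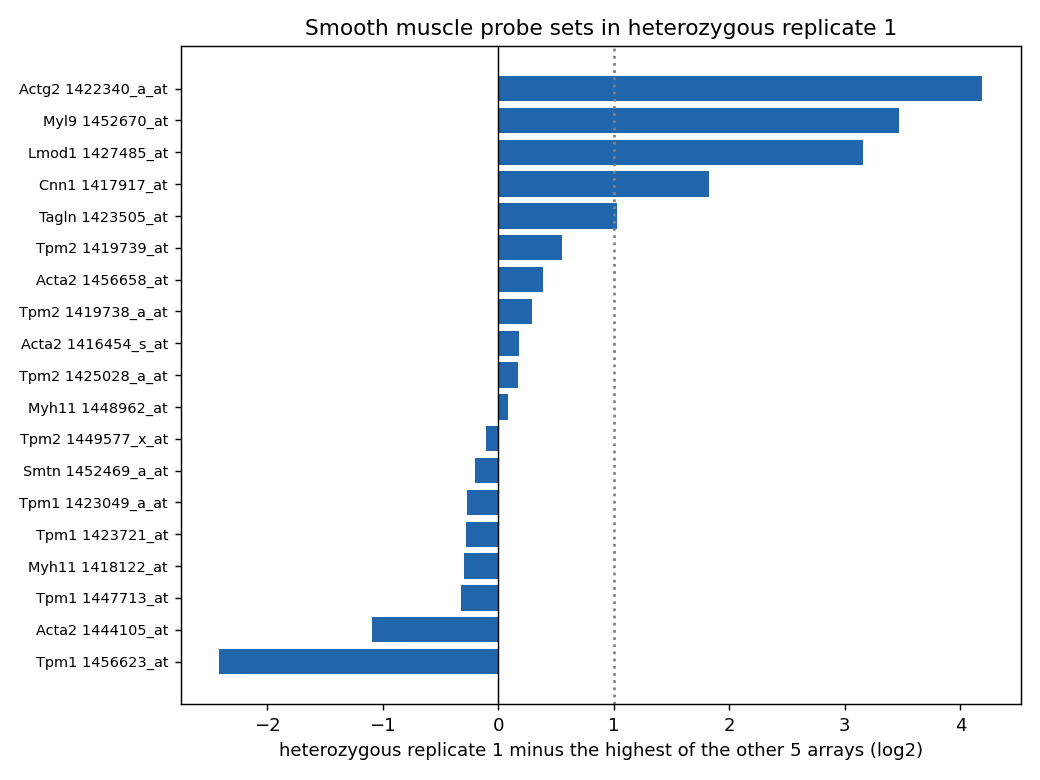
Bars give, for each of the 19 probe sets, the log2 value in heterozygous replicate 1 minus the highest value of the other 5 arrays; the dotted line marks 1. Actg2, Myl9, Lmod1, Cnn1 and Tagln lie beyond the line, at 4.19 down to 1.03, and the brightest Acta2 and Tpm2 probe sets near 0.

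Lists of further genes of the contractile system, counted by each gene's brightest tested probe set, had few calls. Of all 11425 tested genes 3.46% were called, 2% lower and 1.45% higher. Of 28 tested genes of the contractile apparatus and its control 2 fell and 0 rose, 25 differences were below 0 and 2 above, and the median was -0.21, against -0.01 for all genes. Myl6, the essential light chain, read 6.12, 5.95 and 5.79 in null arrays and 8.59, 7.81 and 8.70 in heterozygous arrays, a 5.33-fold fall (log2 difference -2.41, SE 0.28, limma adjusted p = 0.0184). That probe set, 1435041_at, is the one tied to Myl6 alone, and probe sets shared with other genes were not used. Aoc3, an amine oxidase on the surface of smooth muscle and fat cells, fell 4.82-fold, with 4.60 to 4.68 in null and 6.62 to 7.47 in heterozygous arrays (log2 difference -2.27, SE 0.26, limma adjusted p = 0.0188). Both calls were lost without any 1 null array. Differences below 0 that missed the threshold included, as picked after their values were seen, those of Irag1, a target of the relaxing kinase Prkg1 (-2.08, limma adjusted p = 0.0589), Ppp1r12b, a subunit of myosin phosphatase (-1.61, 0.0967 in the same limma fit), the phosphodiesterase Pde5a (-2.26, 0.215 likewise) and the integrin Itga8 (-3.13, 0.258 likewise). Near 0 were caldesmon, Cald1 (-0.03, limma adjusted p = 0.925), the light chain kinase Mylk (-0.12, the same limma adjusted p) and the kinase Rock1 (0.00). Desmin, Des, and the channel subunit Kcnmb1, further marks of smooth muscle, had means below 3.

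Of 21 tested transcription and signalling regulators 1 fell and 0 rose, with a median of -0.34. The one was Fhl1, a LIM domain protein of muscle, with 10.92, 10.38 and 10.50 in null arrays and 11.78, 11.76 and 11.77 in heterozygous arrays (2.25-fold, log2 difference -1.17, SE 0.19, limma adjusted p = 0.0386), a call lost in each fit without 1 array. Srf, at 9.58 to 9.86 in null and 9.26 to 10.18 in heterozygous arrays, differed by 0.11 (limma adjusted p = 0.848). Its cofactors Mrtfa and Mrtfb differed by -0.34 and 0.03 (limma adjusted p = 0.454 and 0.946), and Myocd, myocardin, which is made in smooth and heart muscle, had a mean below 3.

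Of 17 tested relatives, most of them non-muscle or striated forms of the same protein families, 1 fell and 0 rose, with a median of -0.12. It was Tmod2, a tropomodulin that caps actin filaments in nerve cells, at least 6.44-fold lower (2.55, 2.41 and 2.10 in null and 4.47, 6.59 and 6.0 in heterozygous arrays; limma adjusted p = 0.0370). "At least" means that null values were raised to 3, since they lay below it. Tmod2 thus reached the minimum only through its heterozygous arrays. Without heterozygous replicate 1 it was at least 9.82-fold, and the call was lost in the other fits without 1 array. None of 17 tested genes of TGF-beta signalling, a known inducer of Acta2 in fibroblasts, was called by limma. The nearest were the ligand Tgfb3 (-1.65, limma adjusted p = 0.0512) and Ltbp2, which belongs to the family of TGF-beta binding matrix proteins (-5.95, 0.0526 in the same limma fit). The list's median was 0.03.

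**Figure D4:**
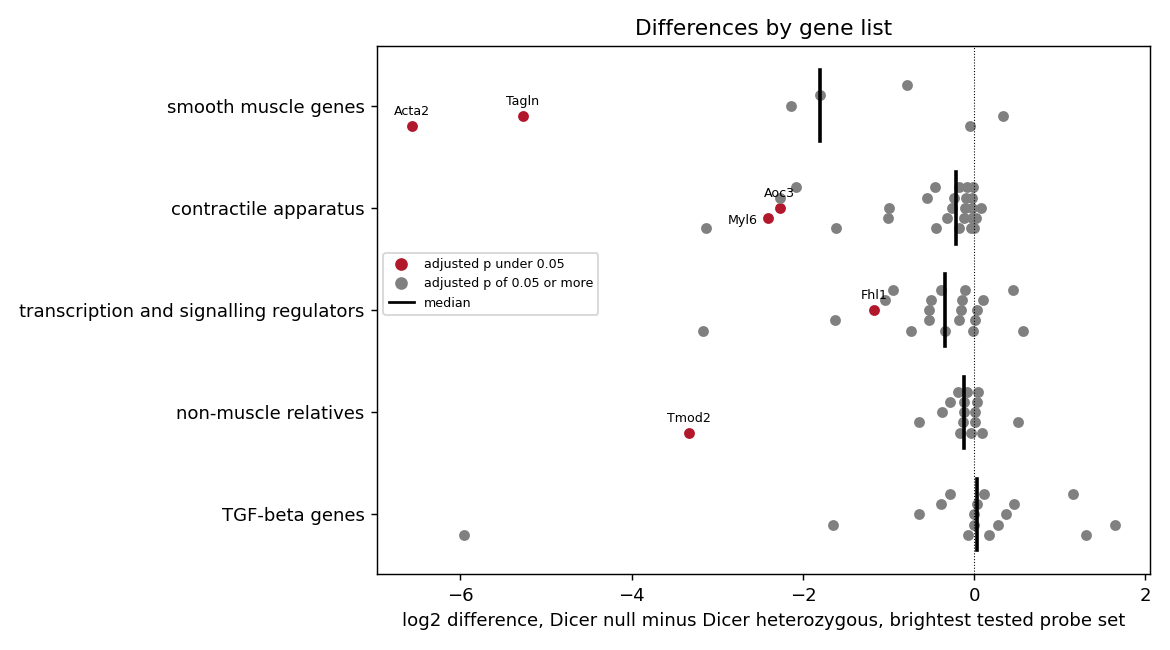
Each point is a gene, placed by the log2 difference, Dicer null minus Dicer heterozygous, of its brightest tested probe set, for the smooth muscle genes and the 4 lists around them; black bars are medians and red points have an adjusted p under 0.05. Medians are -1.80, -0.21, -0.34, -0.12 and 0.03 from top to bottom, and all named calls lie below 0. The first median, -1.80, is the value of Lmod1, which was not called. Lmod1 reached the minimum only through its heterozygous arrays and read 6.54 in replicate 1, against 3.38 and 2.80 in the others.

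Markers of other cell types were read beside these results, and their part in them was not tested. Of 4 tested pericyte markers 1 fell: Cspg4, the NG2 proteoglycan, 14.9-fold (5.66, 5.12 and 3.39 in null and 8.15, 9.59 and 8.11 in heterozygous arrays; limma adjusted p = 0.0448), a call lost in each fit without 1 array. The fold was 9.36 without null replicate 3. The mean level of all 8 pericyte markers was 3.57 to 4.16 in null and 4.59 to 4.99 in heterozygous arrays, with Rgs5, Abcc9, Kcnj8 and Higd1b below 3 throughout. Among 9 tested fibroblast markers 1 rose, Fap, a serine protease of activated fibroblasts, at least 26.4-fold (9.41, 6.12 and 8.32 in null and 3.68, 2.42 and 2.83 in heterozygous arrays; limma adjusted p = 0.0408). Without null replicate 1 or 2 it was at least 15.9-fold or 49.8-fold, and the call held only without null replicate 2. With a heterozygous mean of 2.98, Fap reached the minimum only through its null arrays. The list's median was 0.01, with 5 of the 9 differences above 0 and 4 below, those of Pdgfra (-1.63), S100a4 (-1.37), Postn (-1.32) and Col1a1 (-0.78), whose limma adjusted p values were 0.0593, 0.0570, 0.135 and 0.224. After Fap the largest difference above 0 was that of Lum (2.82, limma adjusted p = 0.116), whose heterozygous mean was 2.16. The 10 fibroblast markers, Fap and Lum among them, averaged 9.18 to 9.79 in null and 8.86 to 9.37 in heterozygous arrays. None of 4 skeletal and 3 cardiac muscle markers tested was called by limma. Averages were 2.72 to 2.78 in null and 2.33 to 3.21 in heterozygous arrays for the 14 skeletal markers, and 3.17 to 3.62 and 2.60 to 4.0 for the 8 cardiac ones. The cardiac average hides a bright marker, Tnnt2. It read 10.15, 10.56 and 7.64 in null arrays and 10.52, 10.18 and 3.54 in heterozygous arrays (limma adjusted p = 0.718). Myod1 and Myog lay below 3 in all arrays. The 5 endothelial markers averaged 2.02 to 2.09 in null and 1.78 to 1.85 in heterozygous arrays, the 4 leukocyte markers 2.48 to 2.83 and 2.68 to 3.25, and the 5 epithelial ones 2.36 to 3.26 and 2.33 to 4.21.

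Genes whose profile over the 6 arrays was most like that of Acta2 were found by the root mean square difference of values centred on each gene's mean, which describes likeness over 6 arrays and tests nothing. For the brightest Acta2 probe set they were Cd109 (0.68), Tmem98 (0.72), the protease cathepsin H, Ctsh (0.87), Prickle2 of planar cell polarity (0.88), Itih2 (0.98) and Rab6b (0.99), in log2 units. Cd109, a membrane protein that binds TGF-beta, read 4.28, 3.90 and 3.56 in null arrays and 10.76, 9.65 and 10.15 in heterozygous arrays. For Tagln they were Fam241b (0.51), Itih2 (0.58), Cd109 (0.72), the drug exporter Abcb1a (0.75), Lgi2 (0.78) and Smpdl3a (0.79). Null means of Itih2, Abcb1a, Lgi2 and Smpdl3a were 2.67, 2.07, 2.10 and 1.86. These genes thus reached the minimum only through their heterozygous arrays, and Lgi2 was not called (limma adjusted p = 0.0548). Itih2, a heavy chain of a serum protease inhibitor, gave 2.89, 2.31 and 2.81 in null arrays, against 9.73, 7.97 and 8.25 in heterozygous arrays. Itih2 and Cd109 stood on both lists. Tagln differed from Acta2 by 1.14 on the same measure and was on neither. Riken, predicted and clone-named genes were left out of this search, as was any symbol that begins with 1 capital letter and a digit.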

How the data were processed

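Biotin-labelled RNA of 6 samples was hybridised to Affymetrix 3′ arrays. In the authors' deposited table each probe set has a log2 value. That scale was taken from the range, 0.40 to 14.18, and from the method. The submitters' processing notes name GCRMA 2.20.0 and R 2.11.1. GCRMA models background from probe sequence, then applies quantile normalization and merges the probes of a set; how it was set is not given in the sources. Quantile normalization hides any overall shift in RNA amount, and differences that start below about 3 depend on the background model.

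Titles gave each sample's genotype. No batch or scan date is given, and no 2 arrays were identical. The platform annotation gives 34945 probe sets 1 symbol, 932 several and 9160 none; by Entrez ID 34741 of the first kind were found in the gene table of GRCm38.p6. Promoter sequences are RefSeq's.

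Groups were compared in R 4.3.3 with limma 3.58.1 (lmFit, eBayes, no block, two-sided), with Benjamini-Hochberg adjustment at 0.05 over all probe sets with a mean of at least 3; 20652 fell below it. A second fit took the gap between the brightest and each other tested probe set of a gene. The code was tested on simulated data. Intervals are 95% intervals from limma. A fold against a group below 3 sets values under 3 to 3. Members, gene lists and the rule for named genes were chosen with earlier results of these data known. The rule names all members and, among the genes searched, the 6 most like Acta2 and Tagln each. It also names up to 6 called genes of each list, or else the one with the smallest p. Genes named outside the rule, such as relatives of a member, Myocd, Des and the other markers of a cell type, are given for comparison. Alternatives were a minimum of 4 or none, robust moderation with a trend, a second quantile normalization, centring, ordinary t statistics, array weights, a replicate block, values below 3 set to 3, probe sets without s or x suffix, a threshold of 0.1 and each array left out. Figures were drawn with matplotlib 3.10.9.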

Additional observations from a re-analysis of the deposited data

How the results depend on the processing

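In limma 756 probe sets were called over the whole table, 3 of them contractile and lower, 0 contractile and higher, and 52 pairs of probe sets of 1 gene. With ordinary t statistics the counts were 0, 0, 0 and 0 (4873, 3, 0 and 1209 at an unadjusted p under 0.05). Array weights gave 2949, 4 and 287 for the whole table, contractile probe sets lower and pairs, Tpm2 1419739_at being the added one. A minimum of 4 gave 10 pairs and no minimum 187. Among contractile probe sets without an s or x suffix, which leaves out Acta2 1416454_s_at and Tpm2 1449577_x_at, 1 was called, Tagln. Without 1 array the whole table gave 44 to 857, contractile probe sets lower 0 to 3 and pairs 0 to 29. The other alternatives kept the count of 3 lower, apart from the block, and the count higher was 0 in each fit in which it was made. Differences of Acta2 1416454_s_at stayed between -7.32 and -5.87, of Tagln between -6.01 and -4.30 and of Tpm2 1449577_x_at between -2.02 and -1.86 in all settings. Signs turned for Tpm1 1423721_at (0.02 centred, 0.051 with array weights, -0.12 to 0.06 without 1 array) and, without 1 array, for Tpm1 1456623_at (-0.85 to 0.37) and Smtn (-0.13 to 0.69). The causes were not tested.

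Same-numbered arrays' deviations from their group means had correlations of -0.06, 0.11 and 0.24, with 3 of 6 arrays closest to their own number, so replicate numbers were not taken as pairs. A replicate block gave 116 probe sets, 2 contractile ones (Tagln and Tpm2 1449577_x_at) and 0 pairs (1876 at an unadjusted p under 0.05) in limma, and Acta2 1416454_s_at had an adjusted p of 0.0509.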

Other observations

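Heterozygous replicate 1, highest by at least 1 log2 unit in 5 contractile genes, was also highest by that margin in genes outside the set, picked here from the lists after their values were seen. Krt18, a keratin of simple epithelia, read 9.02 there and at most 2.68 in the other 5 arrays. Mcam, an adhesion molecule of vessel wall cells, read 8.23 against at most 4.65, and Acta1, skeletal muscle actin, 7.75 against at most 4.91. Ppp1r14a, which inhibits myosin phosphatase, read 5.72 against at most 3.39, and Thy1, a surface protein of fibroblasts, 4.29 against at most 1.77. The part of these genes' source in the contractile values was not tested.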
